A study of Homo sapiens with 8 samples.

Results

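Aminoacyl-tRNA synthetases were followed as a group of 35 genes, 19 that encode cytosolic enzymes and 16 that encode mitochondrial enzymes, among the 58219 genes listed for each library. The members were chosen by gene symbol alone, with no measured value in the rule, and all 35 were found and had enough reads to be tested. RNA had been sequenced from H929 and KMS11 cells, established lines of multiple myeloma (MM) with the t(4;14) translocation. The cells had spent 24 h either in ethanol, the solvent control, or in 2 µM fluvastatin. Fluvastatin is a statin, an inhibitor of HMG-CoA reductase in the mevalonate pathway, and the study asked how such cells change their transcription when this pathway is blocked. Each line and treatment had 2 replicate libraries, 8 in all, and no genetic change was introduced in any group. H929 and KMS11 are single lines, so a difference between them is a difference between these lines and not between classes of myeloma.

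An aminoacyl-tRNA synthetase joins an amino acid to its tRNA, the step that gives the genetic code its meaning. Human cells make separate enzymes for the cytosol and for mitochondria, nearly all from nuclear genes of their own, although GARS1 and KARS1 each serve both compartments. Several cytosolic enzymes sit in a multisynthetase complex with the scaffold proteins AIMP1, AIMP2 and EEF1E1, while the others are free. Many cytosolic synthetase genes are known targets of ATF4, the transcription factor of the integrated stress response, which binds C/EBP-ATF response elements in the promoters of genes for amino acid supply.

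The core of that element, written here as TGATGNAA with N for any base, was looked for on both strands of RefSeq promoters of GRCh38.p14, each running from 250 bases before to 50 bases after a transcription start. A promoter entry was given for 30 of the 35 members, and 8 of these held the core. It was found in 7 of 16 cytosolic genes (43.8%) and in 1 of 14 mitochondrial genes (7.14%), beside 4.46% of 27305 genes in the same table. Of the cytosolic genes listed from general knowledge as ATF4 targets, 7 of 10 with an entry held it, and of those not so listed, 0 of 6. Since ATF4 binds this element, the list and the core are not independent. The list was also written with earlier results of these libraries known, so these counts are a description only. The 8 matches are shown with 10 bases on each side because they mark which members carry the core, each read 5′ to 3′ on the strand of the match and with the core in capitals.
CARS1: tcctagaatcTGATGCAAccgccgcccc
GARS1: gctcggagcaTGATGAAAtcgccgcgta
TARS1: ctggaccagcTGATGCAAtcgaaaggcg
AARS1: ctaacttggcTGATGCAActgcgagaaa
IARS1: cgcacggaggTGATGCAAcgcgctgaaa
MARS1: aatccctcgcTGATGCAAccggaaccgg
NARS1: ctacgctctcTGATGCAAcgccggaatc
YARS2: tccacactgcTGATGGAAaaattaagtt

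In GRCh38.p14 these lie at chr11:3057408-3057435 on the plus strand for CARS1, at chr7:30594835-30594862 on the minus strand for GARS1 and at chr5:33440957-33440984 on the minus strand for TARS1. The AARS1 stretch is chr16:70289676-70289703 and the IARS1 stretch is chr9:92293693-92293720, both on the plus strand. The minus strand carries the remaining 3, MARS1 at chr12:57488054-57488081, NARS1 at chr18:57621805-57621832 and YARS2 at chr12:32756077-32756104. Positions count from 1 at the transcription start and give the first base of the match on the gene's strand. They were -2 in CARS1, -4 in MARS1, 3 in TARS1, -13 in IARS1, 15 in NARS1 and -33 in GARS1. CARS1, GARS1 and TARS1 each have a further RefSeq start, and their positions are from the start whose promoter held the core. AARS1 and YARS2 had it farther out, at -187 and -197. SARS1 and WARS1 have promoter entries without these letters, which says nothing about whether ATF4 binds there. A match is a stretch of letters and not a measured binding site.

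Total counts per library ranged from 26702515 to 41910446, and the lowest rounded count of any member in any library was 116. Of the plasma cell markers, SDC1, IRF4, PRDM1, XBP1, TNFRSF17 and SLAMF7 were expressed in both lines, while CD38 was at 21.24 to 26.86 TPM in H929 and at 0.01 to 0.04 TPM in KMS11. TPM is the abundance of a gene's transcripts scaled by their length and by the total of the library. B cell, monocyte and fibroblast markers did not pass 0.17 TPM, and CD3E, a T cell marker, was at 1.49 to 3.54 TPM in H929. The libraries differed in their trend with GC content, the share of G and C bases in a gene. Between the fifth of genes richest in GC and the fifth poorest, the log2 ratio of fluvastatin to ethanol differed by -0.398 in H929 and by 0.443 in KMS11, and the first KMS11 fluvastatin library stood 0.661 above the second on the same measure. An offset for GC content changed many of the calls below, and its values are given beside them.

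Messages for cytosolic enzymes were more abundant than those for mitochondrial enzymes before treatment. In ethanol the cytosolic members ran from 20.3 TPM for CARS1 to 195 TPM for NARS1 in H929, with a median of 54.1 TPM, and from 23.8 TPM for HARS1 to 211 TPM for EPRS1 in KMS11, with a median of 77.4 TPM. The mitochondrial members ran from 1.74 TPM for WARS2 to 23.6 TPM for TARS2 in H929, with a median of 7.4 TPM, and from 1.03 TPM for PARS2 to 75.8 TPM for IARS2 in KMS11, with a median of 10.7 TPM. For the 17 pairs of a cytosolic and a mitochondrial gene for the same amino acid, the cytosolic gene was the more abundant in 17 in each line, with a median ratio of 9.26 in H929 and 5.68 in KMS11. The ratio was lowest for the cysteinyl enzymes, at 2.36 in H929 and 1.41 in KMS11. It was highest for prolyl tRNA charging, where EPRS1, a fused glutamyl and prolyl enzyme, had 36.2 times the TPM of PARS2 in H929 and 204 times in KMS11.

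**Figure D1:**
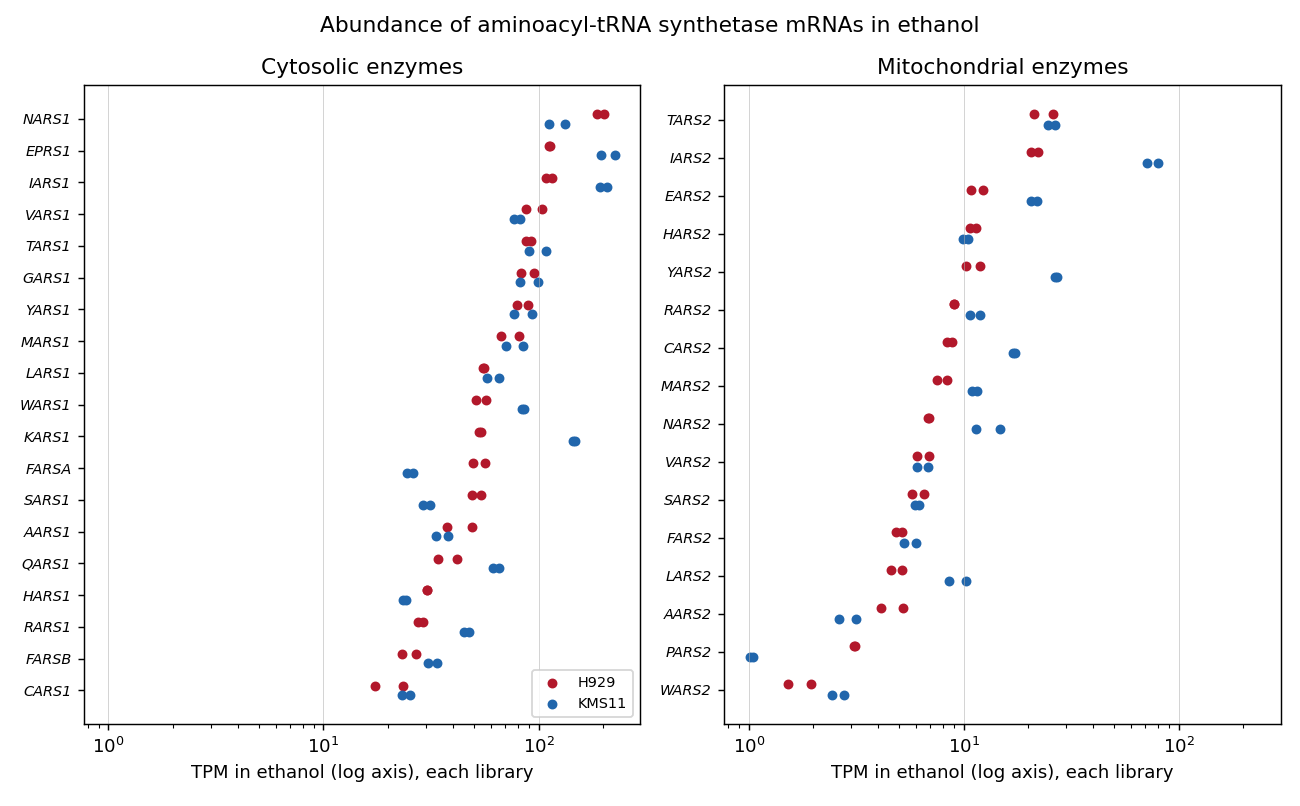
Abundance of the 19 cytosolic (left) and 16 mitochondrial (right) synthetase mRNAs in ethanol, in TPM on a log axis, with 1 point for each library of H929 (red) and KMS11 (blue). The cytosolic genes lie mostly between 20.3 and 211 TPM and the mitochondrial genes mostly below, with IARS2 in KMS11 as the highest mitochondrial gene.

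In CPM, counts per unit of library size scaled with edgeR's TMM method and not by length, KMS11 in ethanol differed from H929 in ethanol for 13 cytosolic members, 3 higher and 10 lower, and for 11 mitochondrial members, 5 higher and 6 lower. Over all 13129 protein-coding genes tested, 72% differed, with 35.6% higher and 36.4% lower. PARS2 was the member most reduced in KMS11, at 14.2 and 14.6 CPM in H929 and 3.16 and 3.53 CPM in KMS11 (log2 difference -2.11 ± 0.16 SE, adjusted p = 1.7e-06). IARS2, the isoleucyl enzyme of mitochondria, was the member most raised, at 145 and 161 CPM in H929 and 383 and 370 CPM in KMS11 (1.303 ± 0.11, adjusted p = 2.9e-06). Among cytosolic members, KARS1 was higher in KMS11 (0.97 ± 0.10) and FARSA was lower (-1.63 ± 0.18). This comparison depended on the scale. The TPM ratio of the lines ran above the CPM ratio by a median of 0.50 on the log2 scale over the 35 members, and the sign differed between the scales for 12 of them, whereas PARS2, IARS2, KARS1 and FARSA kept theirs. With the GC offset, 11 of the 13 cytosolic and 7 of the 11 mitochondrial calls were kept in the same direction. Those of EPRS1 (0.37 to 0.02) and IARS1 (0.36 to 0.01), counted above among the 3 cytosolic genes higher in KMS11, were lost. So were those of NARS2 (0.56 to 0.20), TARS2 (-0.32 to -0.01), SARS2 (-0.80 to 0.04) and VARS2 (-0.70 to 0.04). VARS1 went from -1.22 to -0.35 and FARSA from -1.63 to -0.89, both still lower. The offset added QARS1, WARS1 and CARS2 as higher in KMS11 and FARSB, LARS1 and RARS2 as lower. With it 76.5% of all genes differed between the lines.

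Fluvastatin raised 5 cytosolic synthetase messages in H929 and lowered 5 others. WARS1, GARS1, CARS1, SARS1 and TARS1, which encode the tryptophanyl, glycyl, cysteinyl, seryl and threonyl enzymes, rose. FARSA and FARSB, which encode the subunits of the phenylalanyl enzyme, and KARS1, VARS1 and HARS1, the lysyl, valyl and histidyl genes, fell. Of the mitochondrial enzymes, 7 fell and 0 rose. The counts rest on an adjusted p under 0.05 in edgeR's quasi-likelihood F test, adjusted by Benjamini-Hochberg over all genes tested, under which 42% of all genes changed in H929, with 22.7% higher and 19.3% lower. A share of 26.3% of cytosolic members was thus called in each direction, and 43.8% of mitochondrial members were called lower. The median log2 fold change was 0.08 over the cytosolic members, -0.30 over the mitochondrial members and 0.02 over all genes tested. In a bulk sample, a lower level in each cell and fewer cells with the message cannot be told apart.

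WARS1 changed most. It was at 192 and 169 CPM in the ethanol libraries of H929 and at 719 and 642 CPM in the fluvastatin libraries, so that the lowest treated library was well above the highest control. In KMS11 the ethanol libraries had 194 and 207 CPM and the fluvastatin libraries 200 and 197 CPM, within the same narrow range. The H929 change was 3.77-fold (log2 1.92 ± 0.10 SE, adjusted p = 2.4e-06), and the KMS11 change was -0.02 ± 0.10 (adjusted p = 0.95). Before treatment the difference between the lines in WARS1 CPM did not pass the threshold (0.15 ± 0.10, adjusted p = 0.19), but it did with the GC offset (0.28, adjusted p = 0.0037), and in TPM the means were 54.1 in H929 and 84.7 in KMS11.

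GARS1, whose product charges glycine tRNA in the cytosol and in mitochondria, was at 395 and 337 CPM in ethanol and at 757 and 761 CPM in fluvastatin in H929. The KMS11 libraries lay at 274 and 256 CPM in ethanol and at 258 and 281 CPM in fluvastatin, and there the treatments overlapped. The change was 2.08-fold in H929 (1.05 ± 0.10, adjusted p = 4.8e-05) and 0.02 ± 0.10 in KMS11 (adjusted p = 0.92).

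SARS1 was at 179 and 165 CPM in ethanol and 302 and 273 CPM in fluvastatin in H929, which gave a 1.67-fold rise (0.74 ± 0.09, adjusted p = 2e-04). KMS11 had less of it, 71.1 and 70.8 CPM in ethanol and 74.6 and 71.8 CPM in fluvastatin (0.05 ± 0.09, adjusted p = 0.81). The treated KMS11 libraries stood above the controls by less than the fit's error.

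For CARS1 the ethanol libraries of H929 had 112 and 85.5 CPM and the fluvastatin libraries 186 and 183 CPM, a 1.87-fold rise (0.90 ± 0.12, adjusted p = 0.00029). In KMS11 it was at 84.5 and 82.7 CPM in ethanol and at 98.3 and 97.1 CPM in fluvastatin, with no overlap but a change short of the threshold (0.23 ± 0.12, adjusted p = 0.29). In the main fit CARS1 was the only cytosolic member called higher across both lines (0.57 ± 0.15, adjusted p = 0.046).

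TARS1 showed the smallest of the called rises. It was at 319 and 327 CPM in ethanol and 401 and 441 CPM in fluvastatin in H929 (1.303-fold, 0.38 ± 0.10, adjusted p = 0.013), and at 260 and 228 CPM against 221 and 243 CPM in KMS11 (-0.08 ± 0.10, adjusted p = 0.69). The call in H929 was lost without ethanol replicate 1, ethanol replicate 2 or fluvastatin replicate 2 of H929, where the adjusted p reached 0.095, and the change was 0.25 with the GC offset (adjusted p = 0.0094). The 4 larger rises were called with each library left out.

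The falls in the cytosolic class were led by FARSA and FARSB, the alpha and beta subunits of the same phenylalanyl enzyme. FARSA was at 189 and 168 CPM in ethanol and at 87.1 and 77.1 CPM in fluvastatin in H929, so that its level was 0.46 times that of the control (-1.12 ± 0.17, adjusted p = 0.00071). In KMS11 it was at 57.2 and 58.3 CPM in ethanol and at 80.1 and 51.7 CPM in fluvastatin (0.19 ± 0.17, adjusted p = 0.54). The treated KMS11 libraries lay on either side of the controls, and the GC offset turned the sign there to -0.21. FARSB was at 157 and 186 CPM in ethanol and at 93.8 and 115 CPM in fluvastatin in H929 (-0.72 ± 0.14, adjusted p = 0.0025). Its KMS11 libraries had 140 and 166 CPM in ethanol and 114 and 133 CPM in fluvastatin (-0.31 ± 0.14, adjusted p = 0.22), below the controls without passing the threshold. The beta subunit therefore had a negative estimate in both lines, and was called lower across them (-0.52 ± 0.13, adjusted p = 0.039).

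KARS1, a complex member that also supplies mitochondria, went from 185 and 195 CPM to 119 and 138 CPM in H929 (-0.57 ± 0.10, adjusted p = 0.0013). The KMS11 libraries went from 359 and 384 CPM to 294 and 306 CPM (-0.31 ± 0.10, adjusted p = 0.12). Both lines had every treated library below every control, and the common change was -0.44 ± 0.09 (adjusted p = 0.024).

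VARS1 was at 414 and 333 CPM in ethanol and at 298 and 254 CPM in fluvastatin in H929 (-0.44 ± 0.16, adjusted p = 0.047). In KMS11 it was at 151 and 170 CPM in ethanol and at 219 and 164 CPM in fluvastatin (0.26 ± 0.16, adjusted p = 0.36), again with treated libraries that spread around a control. The H929 call was lost without ethanol replicate 1 (-0.27, adjusted p = 0.27), without fluvastatin replicate 2, under library size scaling and under the stricter filter. With the GC offset the H929 fall was -0.27 (adjusted p = 0.0081).

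HARS1 and HARS2, the cytosolic and mitochondrial histidyl genes, lie head to head on chromosome 5, and their promoter windows share 184 bases on opposite strands. HARS1 fell in H929 from 110 and 112 CPM to 80.5 and 83.3 CPM (-0.43 ± 0.09, adjusted p = 0.0046). HARS2 was at 45.3 and 47.9 CPM in ethanol and at 48.6 and 53.7 CPM in fluvastatin in the same libraries (0.14 ± 0.11, adjusted p = 0.33). Treated libraries were thus below the controls for the one gene and above them, without passing the threshold, for its neighbour. In KMS11, HARS1 had 57.2 and 65.0 CPM in ethanol against 54.1 and 55.3 CPM in fluvastatin, and HARS2 had 30.8 and 30.3 CPM against 30.3 and 27.9 CPM. Neither passed the threshold there. Their exons overlap by 108 bases on opposite strands, 0.763% of the exon bases of HARS1 and 2.9% of those of HARS2.

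The other 9 cytosolic members did not pass the threshold in H929, with log2 fold changes between -0.19 for IARS1 and 0.26 for AARS1. AARS1 was at 320 and 245 CPM in ethanol and at 360 and 315 CPM in fluvastatin, groups that overlapped, although the fluvastatin library stood above the ethanol library of the same number both times. With the replicate block AARS1 (0.27, adjusted p = 0.024) and MARS1 (0.24, adjusted p = 0.030) were called higher, and both were also called without ethanol replicate 1. The GC offset added calls for 5 of these genes, AARS1 (0.27, adjusted p = 0.031) and MARS1 (0.27, adjusted p = 0.0097) higher, and IARS1 (-0.32, adjusted p = 0.0011), RARS1 (-0.28, adjusted p = 0.004) and LARS1 (-0.21, adjusted p = 0.015) lower, which made 15 calls in the class. That offset also raised the share of all genes called in H929 to 55.5%. EPRS1 was at 917 and 955 CPM in ethanol and at 967 and 1010 CPM in fluvastatin (0.08 ± 0.09). RARS1, the arginyl gene of the complex, had 108 and 120 CPM in ethanol and 97.2 and 111 CPM in fluvastatin (-0.13 ± 0.11). MARS1, YARS1, NARS1, QARS1 and LARS1 lay between -0.03 and 0.23. Exons of MARS1 overlap DDIT3, the gene for CHOP, by 355 bases on the opposite strand, 5.05% of its exon bases, and whether the counting used strand is not given in the sources used here.

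**Figure D2:**
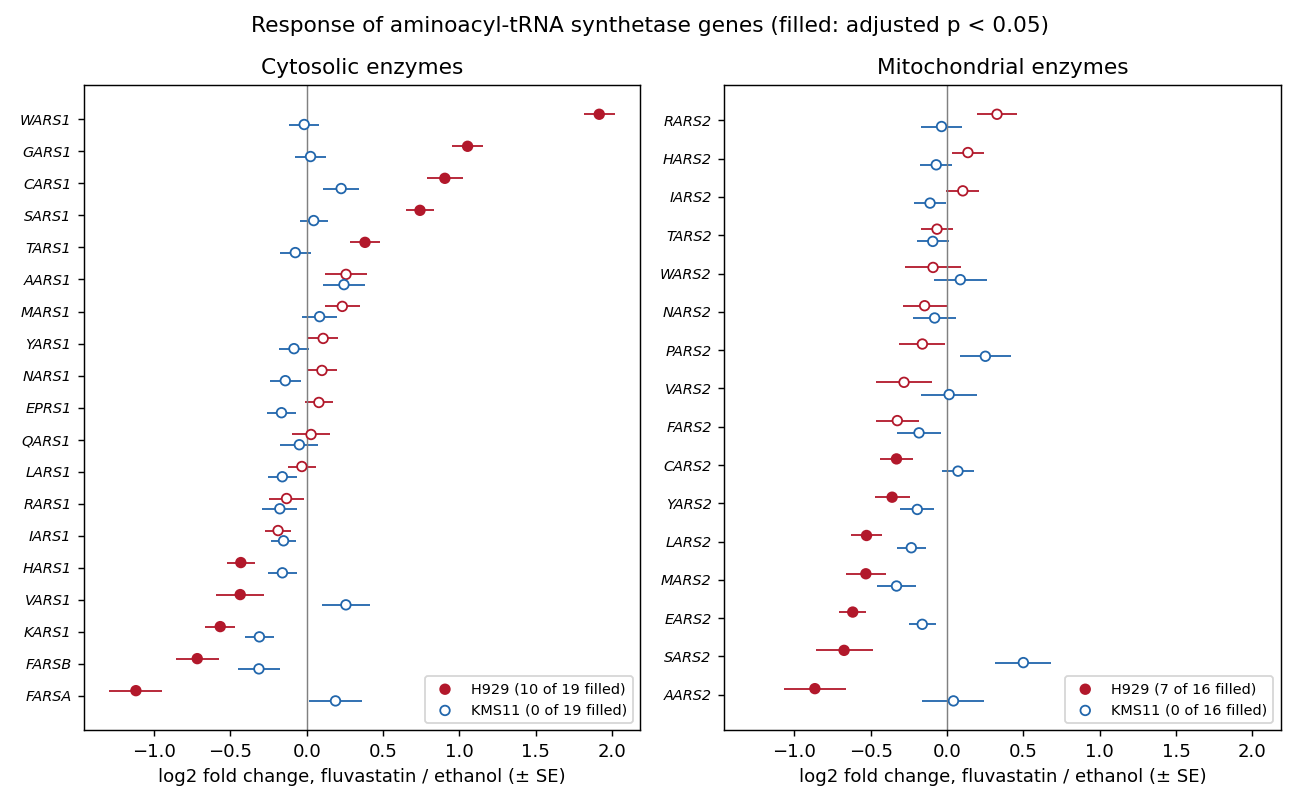
Log2 fold change of each synthetase gene, fluvastatin over ethanol, with its standard error, in H929 (red) and KMS11 (blue), for cytosolic (left) and mitochondrial (right) enzymes ordered by the H929 value. Filled points passed an adjusted p of 0.05, which 10 of 19 cytosolic and 7 of 16 mitochondrial genes did in H929 and 0 did in KMS11.

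Among the cytosolic genes, of the 12 on the ATF4 list 5 rose in H929 and 0 fell, with a median of 0.24. An unadjusted p under 0.05, for which the share of all genes was not counted, was reached downward by 1 of the 12, IARS1. DESeq2 called 0 of the 12 lower. With the GC offset, however, 7 of the 12 were called higher and 2, IARS1 and LARS1, lower, and IARS1 was also called lower without either KMS11 fluvastatin library. Of the 7 cytosolic genes off the list, 0 rose and 5 fell, with a median of -0.44, and none of these had an unadjusted p under 0.05 upward. Under that offset 0 of these 7 were higher and 6 lower. Of all 13129 genes it called 3358 higher and 3923 lower. The list was written from general knowledge with earlier results of these libraries known, so these counts are a description, beside the 22.7% of all genes that rose and the 19.3% that fell. Not all genes on the list passed the threshold in the main fit, where AARS1, EPRS1, IARS1, LARS1, MARS1, NARS1 and YARS1 did not. That does not show that these genes did not respond. Of the 8 genes with the promoter core, CARS1, GARS1 and TARS1 rose, YARS2 fell and the other 4 were not called. Among the 7 members of the multisynthetase complex, 0 rose and 1, KARS1, fell (median -0.03), and of the 12 free enzymes 5 rose and 4 fell (median 0.18). With the GC offset 1 of the complex members was higher and 4 were lower, against 6 and 4 of the free enzymes, and the difference between these groups was not tested.

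Messages of mitochondrial enzymes moved mostly down in H929. Library by library, treated and control groups did not overlap for 12 of the 16, with 10 below the controls and 2 above, and for the cytosolic genes 6 were below and 6 above. Over all genes tested, 33.5% had fluvastatin wholly below ethanol and 37.5% wholly above. The falls ranged from -0.33 for CARS2 to -0.87 for AARS2.

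AARS2, the alanyl enzyme of mitochondria, was at 37.9 and 31.0 CPM in ethanol and at 21.6 and 16.3 CPM in fluvastatin in H929 (-0.87 ± 0.20, adjusted p = 0.007). KMS11 began lower, at 16.7 and 14.7 CPM, and had 19.2 and 13.3 CPM in fluvastatin, on either side of the controls (0.04 ± 0.20, adjusted p = 0.93). Without H929 fluvastatin replicate 2 the H929 call was lost (adjusted p = 0.056).

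SARS2, the mitochondrial seryl gene, had 17.0 and 15.2 CPM in ethanol and 9.93 and 10.3 CPM in fluvastatin in H929 (-0.67 ± 0.19, adjusted p = 0.016). The KMS11 libraries had 8.64 and 9.85 CPM in ethanol and 15.4 and 10.8 CPM in fluvastatin (0.50 ± 0.18, adjusted p = 0.16). Neither line's groups overlapped, and the direction was opposite in the lines, but with the GC offset the KMS11 value was 0.07 (adjusted p = 0.77) and that of H929 was -0.51 (adjusted p = 0.0068). In GENCODE v44, 48.2% of the exon bases of SARS2 also belong to another protein-coding gene on the same strand. The authors counted with an earlier GENCODE release, where the overlap was not checked, so how far it affects the counts is not known. The H929 call of SARS2 was lost without ethanol replicate 1, fluvastatin replicate 1 or fluvastatin replicate 2 of H929.

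EARS2 encodes the enzyme that puts glutamate on glutamate and glutamine tRNAs in mitochondria. Its H929 libraries were close to each other, at 54.2 and 53.7 CPM in ethanol and 35.6 and 34.7 CPM in fluvastatin (-0.62 ± 0.09, adjusted p = 5e-04). KMS11 had 68.7 and 71.5 CPM in ethanol and 62.7 and 62.6 CPM in fluvastatin (-0.16 ± 0.09, adjusted p = 0.30). The fall in H929 was called with every library left out in turn and under every other setting tried, which also held for LARS2.

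MARS2 was at 45.2 and 51.1 CPM in ethanol and at 29.5 and 37.1 CPM in fluvastatin in H929 (-0.53 ± 0.13, adjusted p = 0.0087), and at 47.0 and 48.4 CPM against 36.1 and 39.7 CPM in KMS11 (-0.33 ± 0.13, adjusted p = 0.18). LARS2 was at 39.2 and 39.4 CPM in ethanol and at 27.4 and 27.1 CPM in fluvastatin in H929 (-0.53 ± 0.10, adjusted p = 0.002), and at 52.0 and 51.3 CPM against 45.4 and 42.5 CPM in KMS11 (-0.23 ± 0.10, adjusted p = 0.19). These methionyl and leucyl genes had every treated library below every control in each line, and were the only mitochondrial members called across the lines (-0.43 ± 0.11 with adjusted p = 0.039 for MARS2, and -0.38 ± 0.09 with adjusted p = 0.038 for LARS2). The H929 call of MARS2 was lost without ethanol replicate 2 or fluvastatin replicate 1.

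YARS2, the mitochondrial tyrosyl gene, was at 22.1 and 24.7 CPM in ethanol and at 18.1 and 18.3 CPM in fluvastatin in H929 (-0.36 ± 0.12, adjusted p = 0.030), and at 38.9 and 36.7 CPM against 32.4 and 33.6 CPM in KMS11 (-0.20 ± 0.11). CARS2 was at 25.8 and 26.4 CPM in ethanol and at 20.8 and 20.7 CPM in fluvastatin in H929 (-0.33 ± 0.11, adjusted p = 0.033), and at 29.8 and 31.2 CPM against 32.4 and 31.8 CPM in KMS11 (0.07 ± 0.11). Both were the least certain of the falls, since DESeq2 called neither and each was lost when certain single H929 libraries were left out.

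The positive estimates among mitochondrial members in H929 belonged to RARS2, HARS2 and IARS2. RARS2 had 28.6 and 30.9 CPM in ethanol and 36.4 and 38.2 CPM in fluvastatin (0.33 ± 0.13, adjusted p = 0.073, unadjusted p = 0.034), and it was the only mitochondrial member with an unadjusted p under 0.05 upward. RARS2 was called higher with the filter of 50 counts in every library, with the GC and length offsets, with the replicate block and without either KMS11 fluvastatin library, at adjusted p-values of 0.029 to 0.048, whereas the GC offset alone brought it to 0.15 (adjusted p = 0.14). DESeq2 called 0 of the 16 higher and 5 lower, and the GC offset 0 higher and 9 lower, with FARS2 (-0.32) and NARS2 (-0.29) added. The shares of all genes called were 39.1% with DESeq2 and 55.5% with the GC offset. IARS2 was at 145 and 161 CPM in ethanol and at 153 and 175 CPM in fluvastatin (0.10 ± 0.11). FARS2 was at 15.96 and 14.6 CPM against 12.7 and 11.7 CPM (-0.33 ± 0.14, adjusted p = 0.093). NARS2, PARS2, TARS2, VARS2 and WARS2 lay between -0.28 and -0.07 and did not pass, and the GC offset moved VARS2 from -0.28 to -0.14. In GENCODE v44, exons of VARS2 share 63% of their bases with a noncoding gene on the same strand, which was not checked in the release the authors used.

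Summed over a class, the levels in TPM moved in opposite directions in H929. The 19 cytosolic genes together made up 1336 and 1275 TPM in ethanol and 1536 and 1580 TPM in fluvastatin. The 16 mitochondrial genes together had 143.4 and 142.8 TPM in ethanol and 125.1 and 132.7 TPM in fluvastatin. In KMS11 the cytosolic sum went from 1614 and 1465 TPM to 1218 and 1414 TPM, and the mitochondrial sum from 257.2 and 235.9 TPM to 190.1 and 222.5 TPM. On the CPM scale the cytosolic sum also rose in H929, from 6382 and 6114 to 7241 and 7221 CPM, and was lower in treated KMS11 cells, at 4979 and 5191 CPM against 5492 and 5383 CPM. WARS1 and GARS1 made up most of the cytosolic rise in H929, going together from 152.4 and 133.7 TPM to 376.3 and 362.2 TPM. The other 17 cytosolic genes summed to 1183 and 1141 TPM in ethanol and to 1160 and 1217 TPM in fluvastatin, groups that overlapped. This split was chosen after the values were seen, and the sums are given without a test.

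Compared by amino acid, the cytosolic gene had the higher log2 fold change in 11 of 17 pairs in H929 and in 8 of 17 in KMS11. The widest gaps in H929 were 2.01 on the log2 scale between WARS1 and WARS2, 1.42 between SARS1 and SARS2, 1.24 between CARS1 and CARS2 and 1.12 between AARS1 and AARS2. For the seryl and cysteinyl pairs the cytosolic gene rose and the mitochondrial gene fell. WARS2 was at 8.51 and 7.80 CPM in ethanol and at 6.72 and 8.58 CPM in fluvastatin in H929, where the groups overlapped. The order was the other way for the phenylalanyl genes, with FARSA 0.79 and FARSB 0.39 below FARS2, and for HARS1, RARS1, IARS1 and VARS1 against their mitochondrial partners.

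**Figure D3:**
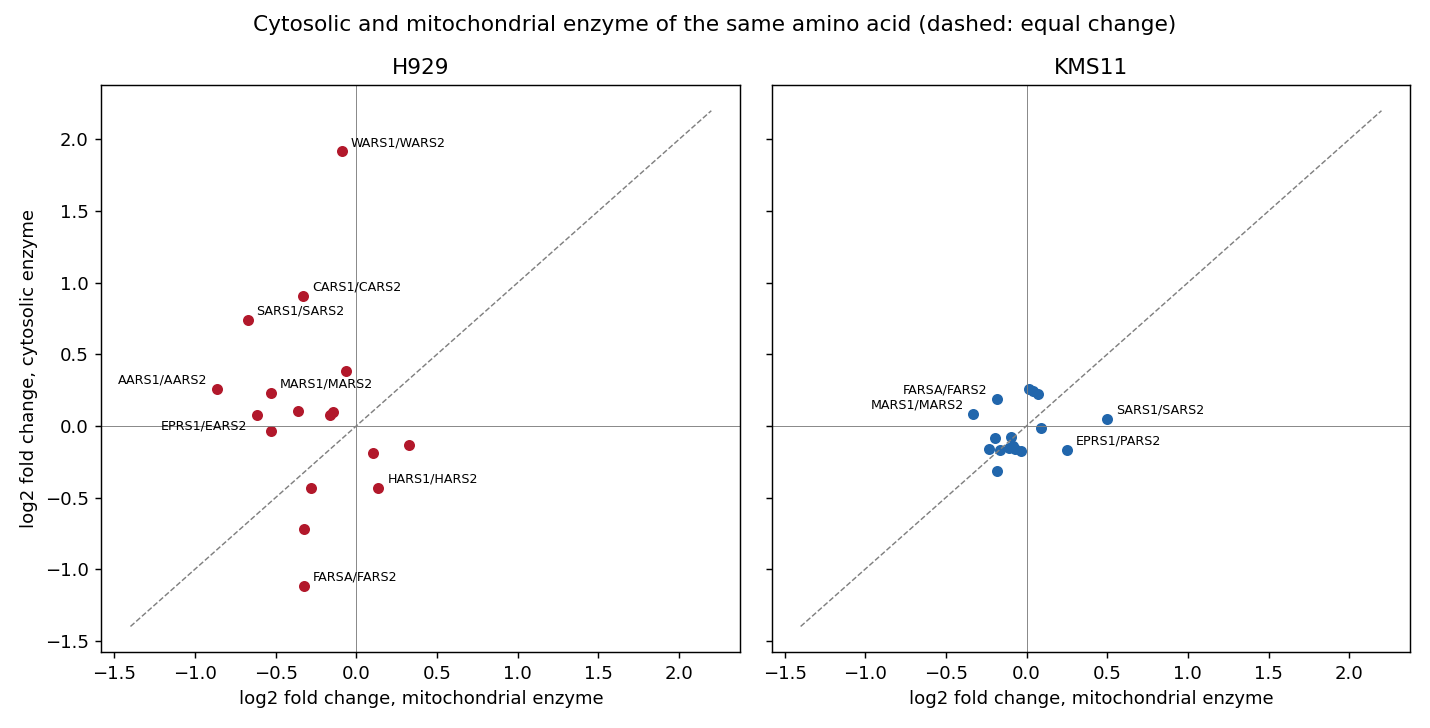
Log2 fold change of the cytosolic gene against that of the mitochondrial gene for the same amino acid, 17 pairs, in H929 (left) and KMS11 (right), with the dashed line marking equal change. In H929 11 pairs lie above the line, with WARS1/WARS2 farthest from it, and in KMS11 the pairs lie close to the origin with 8 above the line.

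No synthetase gene passed the threshold in KMS11. Over all genes tested, 3.12% changed in this line, 2.58% higher and 0.533% lower. That share was 7.05% with DESeq2 and 12.1% with the GC offset. The treated KMS11 replicates differed most, with a standard deviation of 0.251 in the log2 ratio between them over 5597 genes. It was 0.124 in KMS11 ethanol, and 0.178 and 0.181 in H929 ethanol and fluvastatin. The absence of calls therefore does not show that these genes did not respond. At an unadjusted p under 0.05, 0 cytosolic members were higher and 2 were lower, FARSB and KARS1. Of the mitochondrial members 1 was higher, SARS2, and 2 were lower, MARS2 and LARS2. The share of all genes at that unadjusted threshold was not counted, so these numbers have no background beside them. DESeq2 called 1 member, KARS1, lower. The median log2 fold change was -0.08 over each class and 0.00 over all genes tested. Treated groups lay wholly above the controls for 4 cytosolic and 3 mitochondrial members and wholly below for 8 and 5, where 26.9% and 26.5% of all genes did so. On the TPM scale the KMS11 ratios were lower than on the CPM scale by a median of 0.16 on the log2 scale, and the sign of 8 members differed between the scales, among them VARS1, whose CPM estimate of 0.26 was the highest of the cytosolic class.

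The KMS11 estimates farthest from 0 were otherwise small. AARS1 went from 172 and 160 CPM to 212 and 181 CPM (0.24 ± 0.14), close to its estimate of 0.26 ± 0.14 in H929. RARS1 went from 130 and 135 CPM to 107 and 128 CPM (-0.18 ± 0.11), and EPRS1 from 1249 and 1177 CPM to 1011 and 1152 CPM (-0.17 ± 0.09). In the mitochondrial class, PARS2 had 3.16 and 3.53 CPM in ethanol and 4.19 and 3.78 CPM in fluvastatin (0.25 ± 0.17), and WARS2 had 9.16 and 9.96 CPM against 9.28 and 10.99 CPM (0.09 ± 0.17). FARS2 had 12.6 and 11.8 CPM against 11.4 and 10.2 CPM (-0.18 ± 0.14). The first treated KMS11 library was above the second for FARSA, VARS1, AARS2, SARS2 and VARS2, the 5 members richest in GC with fractions of 0.577 to 0.617. It was also above the second for many other members, among them AARS1, QARS1, TARS2 and YARS1, and below it for others, such as EPRS1 and KARS1. Whether GC content was the cause was not tested. With the GC offset, 2 cytosolic members, KARS1 and QARS1, and 3 mitochondrial members, LARS2, TARS2 and VARS2, were called in KMS11, all of them lower. Of all 13129 genes, 844 were called higher and 746 lower with that offset. Without the second treated KMS11 library, the log2 fold change was 0.43 for FARSA and 0.69 for SARS2. A larger share of all genes was also called in that fit, which has 1 treated KMS11 library.

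The responses of the lines were compared by a test of their difference, KMS11 minus H929. It passed for 7 cytosolic members, of which 5 were more positive in H929 and 2 in KMS11, and for 3 mitochondrial members, all more positive in KMS11. Over all genes tested 23.2% passed, 11.7% more positive in KMS11 and 11.5% more positive in H929. The 5 cytosolic genes that responded more positively in H929 were the 5 that rose there, with differences of -1.93 ± 0.14 for WARS1 (adjusted p = 9.5e-05), -1.03 ± 0.14 for GARS1 (adjusted p = 0.0014), -0.70 ± 0.13 for SARS1 (adjusted p = 0.0053), -0.68 ± 0.17 for CARS1 (adjusted p = 0.018) and -0.46 ± 0.14 for TARS1 (adjusted p = 0.044). All of these are on the ATF4 list, of whose 12 genes 5 passed in this direction and 0 in the other, and with the GC and length offsets 7 and 1, the latter IARS1. The opposite direction was taken by FARSA (1.31 ± 0.24, adjusted p = 0.0054), VARS1 (0.69 ± 0.22, adjusted p = 0.049), SARS2 (1.17 ± 0.26, adjusted p = 0.011), AARS2 (0.91 ± 0.29, adjusted p = 0.046) and EARS2 (0.46 ± 0.13, adjusted p = 0.028). With the GC and length offsets 34.4% of all genes passed, 2526 more positive in KMS11 and 1988 more positive in H929.

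**Figure D4:**
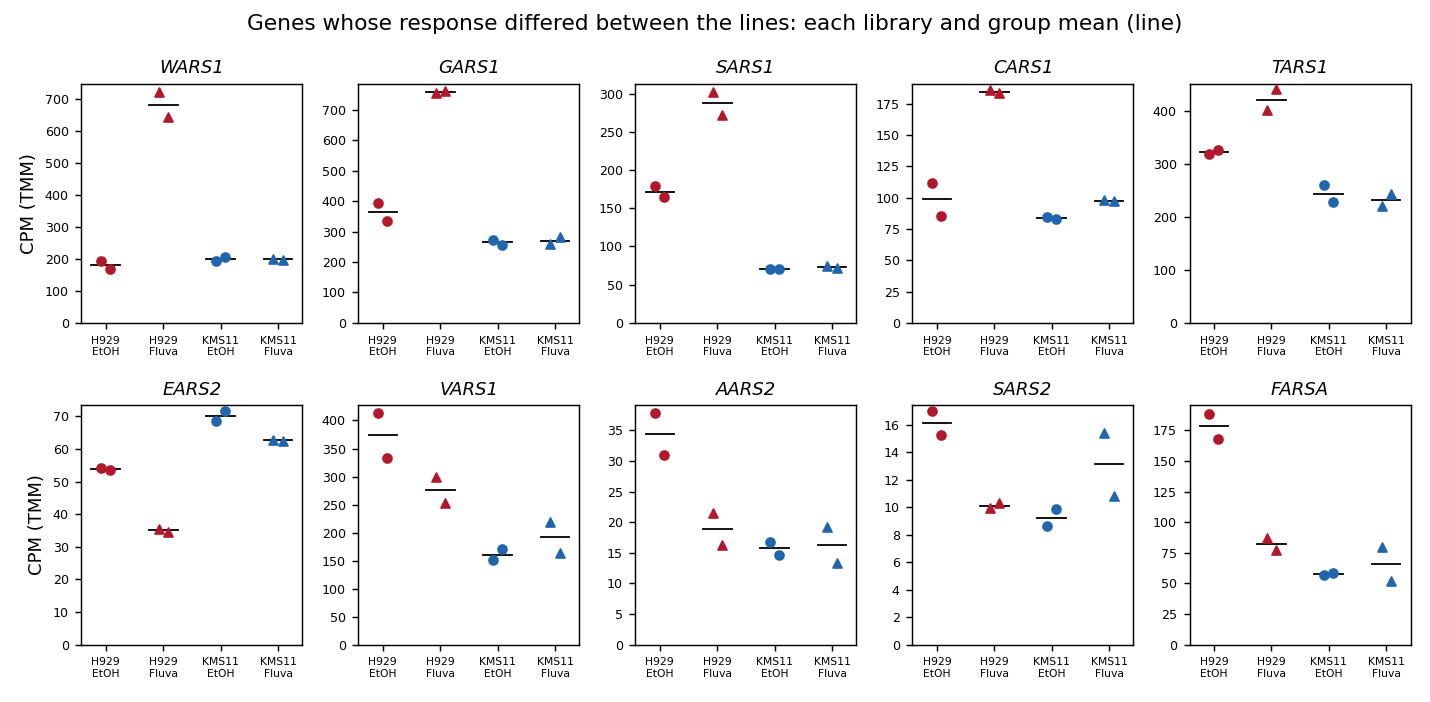
CPM (TMM-scaled) in each library of the 10 synthetase genes whose response differed between the lines, with ethanol as circles, fluvastatin as triangles, H929 in red, KMS11 in blue and group means as lines. For WARS1 the treated H929 libraries stand at 719 and 642 CPM and the other 6 libraries between 169 and 207 CPM.

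The GC offset moved several of these differences by more than 1.5 times. FARSA went to 0.78 (adjusted p = 0.00018), SARS2 to 0.58 (adjusted p = 0.032), AARS2 to 0.53 (adjusted p = 0.022) and TARS1 to -0.27 (adjusted p = 0.046), while VARS1 went to 0.10 and was no longer called (adjusted p = 0.52). The offset added FARSB, KARS1 and LARS2 as more positive in KMS11 and MARS1, QARS1 and TARS2 as more positive in H929. With it 33.8% of all genes passed. The differences of WARS1, GARS1, SARS1 and FARSA were called under every other setting and with each library left out. Those of the other 6 were lost with at least 1 library left out, CARS1 without either KMS11 ethanol library and SARS2 without the first of these. EARS2 was also lost with DESeq2 and with RLE scaling, and AARS2 and VARS1 with library size scaling and with the stricter filter of 50 counts in every library.

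Across both lines, 1 cytosolic member was higher and 2 were lower, and 2 mitochondrial members were lower, where 10.4% of all genes were called, 6.5% higher and 3.93% lower. This fit has a common dispersion of 0.0316 in place of 0.0125 for the 4 group means. WARS1, with an average of 0.95 ± 0.35, did not pass it (adjusted p = 0.11), and neither did GARS1 (0.54 ± 0.19, adjusted p = 0.098). DESeq2 called 2 cytosolic members higher, CARS1 and WARS1 (0.94, adjusted p = 0.025), and 3 lower. The GC and length offsets called 2 higher, CARS1 and GARS1 (0.53, adjusted p = 0.049), and 6 lower. Of all genes, these settings called 19.5% and 23.4%. The 5 calls, CARS1, FARSB, KARS1, MARS2 and LARS2, were all lost without any 1 of the 4 H929 libraries or without KMS11 ethanol replicate 2. That of CARS1 was also lost with RLE scaling.

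Partners of the synthetases were also measured. The 14 genes listed were for scaffolds, tRNA amidation and formylation, editing, selenocysteine tRNA and delivery to the ribosome. They also included TARS3, a paralog of the threonyl enzyme that is not among the members. Of the 14, 1 rose and 6 fell in H929 (median -0.26), where 22.7% of all genes rose and 19.3% fell. DESeq2 called 5 there, without PSTK and GATC, and the GC offset called 10, 1 higher and 9 lower. Of all genes, DESeq2 called 39.1% in H929 and the GC offset 55.5%. In KMS11, 0 were called by edgeR or by DESeq2. At an unadjusted p under 0.05, 0 were higher and 4 lower, and the share of all genes at that threshold was not counted. The GC offset called QRSL1, AARSD1 and TARS3 lower. That offset called 12.1% of all genes in KMS11. EEF1E1, a scaffold of the complex, went from 58.3 and 75.5 CPM to 31.9 and 40.0 CPM in H929 (-0.89 ± 0.17, adjusted p = 0.0023) and from 57.8 and 58.0 CPM to 38.1 and 50.2 CPM in KMS11 (-0.39 ± 0.17, adjusted p = 0.21). AIMP2, another scaffold, fell in H929 from 29.7 and 30.3 CPM to 19.98 and 21.9 CPM (-0.52 ± 0.11, adjusted p = 0.0035) and was at 43.4 to 45.5 CPM in the KMS11 libraries. The scaffold AIMP1 did not pass in either line.

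TUFM, which delivers charged tRNA to the mitochondrial ribosome, fell in H929 from 256 and 243 CPM to 165 and 159 CPM (-0.63 ± 0.11, adjusted p = 0.0016) and did not in KMS11 (0.03 ± 0.11). Its cytosolic counterpart EEF1A1 was at 31510 and 32830 CPM in ethanol and at 31830 and 32350 CPM in fluvastatin in H929 (0.00 ± 0.08). Of the subunits of the amidotransferase that turns glutamate on mitochondrial glutamine tRNA into glutamine, QRSL1 (-0.41 ± 0.11, adjusted p = 0.013) and GATC (-0.28 ± 0.10, adjusted p = 0.039) fell in H929, as EARS2 did, and GATB was at -0.03 ± 0.13. AARSD1, an editing factor for alanine tRNA, fell (-0.69 ± 0.13, adjusted p = 0.0022). PSTK, the kinase of the selenocysteine route, was the partner that rose, from 4.94 and 4.84 CPM to 6.72 and 7.81 CPM (0.57 ± 0.19, adjusted p = 0.037). That call was lost with DESeq2, without any 1 of the 4 H929 libraries and without either KMS11 ethanol library, and the call of GATC was lost in the same cases and with RLE scaling and no filter. QRSL1 was lost without ethanol replicate 2 or fluvastatin replicate 1 of H929. Across both lines EEF1E1 and QRSL1 were called lower, and the responses of TUFM and AIMP2 differed between the lines (0.66 ± 0.16 and 0.49 ± 0.15, adjusted p = 0.015 and 0.038). Both calls across the lines were lost without any 1 of the H929 libraries, without KMS11 ethanol replicate 2, with the replicate block and with no cell line term, that of EEF1E1 also without KMS11 fluvastatin replicate 1 and that of QRSL1 without KMS11 ethanol replicate 1. The difference for TUFM was lost without H929 fluvastatin replicate 2 or either KMS11 ethanol library, and that for AIMP2 without any H929 or KMS11 ethanol library, with DESeq2, with RLE scaling and with no filter.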

How the data were processed

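RNA was measured in 8 libraries. The authors prepared stranded total RNA libraries, aligned reads with STAR 2.5.2b and quantified genes with RSEM 1.3.0 on hg38, by the submitters' processing notes. They deposited un-normalized expected counts and TPM values scaled by effective length. Expected counts were rounded and tested in R 4.3.3 with edgeR 4.0.16 after filterByExpr (minimum count 10, minimum total 15) and TMM scaling, over 13129 protein-coding genes of GENCODE v44. Responses of each line and their difference were contrasts of the 4 group means, and both lines together came from a fit with a cell line term. Standard errors are the size of the log2 fold change over sqrt(F). The test was tried on simulated counts. Replicates varied beyond counting error in every group. The study's methods call them biological replicates. The p-values set each change against a spread estimated from all 8 libraries together.

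The rule for the members used gene symbols and no measured value. Even so, members, lists and the motif were chosen with earlier results of these data known. Values in every library are given for members called for the difference or across lines, for the 4 largest rises and falls of each class and line, and for HARS1 and HARS2. Partners called in a line have their fold changes, some with each library. Alternatives were DESeq2 1.42.0, other scalings, filters and offsets for GC content and length, a replicate block, no cell line term and leaving out each library. FPKM values were not used.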

Additional observations from a re-analysis of the deposited data

Results flagged for a closer look

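The response to fluvastatin differed between H929 and KMS11, by edgeR's test of the difference itself, for 10 synthetase genes of 35. Over all genes tested 23.2% passed the same test. On the log2 scale, KMS11 minus H929, the difference was -1.93 for WARS1, -1.03 for GARS1, -0.70 for SARS1, -0.68 for CARS1 and -0.46 for TARS1, all genes that rose in H929. It was 1.31 for FARSA, 0.69 for VARS1, 1.17 for SARS2, 0.91 for AARS2 and 0.46 for EARS2, all genes that fell in H929. With the GC offset VARS1 was no longer called (0.10, adjusted p = 0.52). The differences other than those of WARS1, GARS1, SARS1 and FARSA depended on which libraries were kept, as given above. With 2 libraries in each group, no single library could be tested as standing apart from its group.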

How the results depend on the processing

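The 5 largest H929 changes of cytosolic members (WARS1, FARSA, GARS1, CARS1, SARS1) and those of FARSB, KARS1, HARS1, EARS2 and LARS2 were called under every alternative and with each library left out. The cause of the shifts below was not tested, and the offsets reduce the differences between libraries that follow GC content.

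In H929 the 10 cytosolic and 7 mitochondrial calls became 15 and 9 with the GC offset. Over all genes tested the share called there went from 42% to 55.5%. Within KMS11, where the main count was 0 for each class, called cytosolic members numbered 1 with DESeq2, 2 with the GC offset and 1 with GC and length offsets, and mitochondrial members 3 and 3 with these offsets. The share of all genes in KMS11 went from 3.12% to 7.05%, 12.1% and 12.3% under these settings in turn. Across both lines the cytosolic count of 3 went to 5 with DESeq2, 7 with the GC offset, 8 with GC and length and 0 with no cell line term, and the mitochondrial count of 2 to 4, 7, 7 and 0. The share of all genes there went from 10.4% to 19.5%, 24.1%, 23.4% and 0.0305% in the same order. For the difference, the cytosolic count of 7 went to 12 with GC and length, and the mitochondrial count of 3 to 5 with either offset. Its share of all genes went from 23.2% to 33.8% with the GC offset and to 34.4% with GC and length.

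Replicate numbers were not treated as pairs, because deviations of same-numbered libraries correlated at 0.775 in H929 and -0.08 in KMS11, and the labels tie the numbers to nothing. With a replicate block the counts were 12 cytosolic and 8 mitochondrial in H929, with AARS1, MARS1 and RARS2 added as higher, 2 cytosolic and 0 mitochondrial in KMS11, and 0 and 0 across both lines. The shares of all genes with the block were 48.9% in H929, 12.5% in KMS11 and 1.2% across both lines. With the block and the GC offset the counts were 7 and 7 in KMS11, 0 and 0 across both lines, and 13 and 6 for the difference. The shares of all genes were then 24.5%, 3.22% and 42.3%.

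Leaving out 1 library leaves 1 in its group, and the calls then moved over all genes tested as well as among the members. In H929, fewer mitochondrial members and a smaller share of all genes were called without an H929 library. For the difference, fewer members of each class and a smaller share of all genes were called without a KMS11 ethanol library. Losses of calls with a library left out are therefore not particular to these genes.

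The signs that turned included members called before, SARS2 (-0.80), VARS2 (-0.70) and IARS1 (0.36) between the lines in ethanol, and VARS1 in KMS11 (0.26), which was not called. In KMS11, with the GC offset, the GC and length offsets, and the block with the GC offset in turn, FARSA was at -0.21, -0.20 and -0.21, VARS1 at -0.18, -0.17 and -0.18, AARS2 at -0.24, -0.27 and -0.24 and VARS2 at -0.37, -0.37 and -0.37. VARS2 was also at -0.025 with DESeq2, -0.026 with RLE scaling and -0.0099 with the replicate block. The difference was -0.23, -0.21 and -0.23 for VARS2 under the first 3 settings, and -0.0098 for IARS1 with DESeq2 and -0.0098 with RLE. Between the lines in ethanol, QARS1 was at 0.27 and 0.27, SARS2 at 0.037 and 0.019 and VARS2 at 0.036 and 0.046 with the GC offset and with GC and length, and IARS1 at -0.039 with the latter. With 1 library left out, values ran from -0.083 to 0.014 for LARS1 and from -0.32 to 0.0042 for NARS2 in H929. In KMS11 they ran from -0.17 to 0.43 for FARSA, -0.19 to 0.030 for QARS1, -0.25 to 0.24 for AARS2 and -0.32 to 0.24 for VARS2. VARS1 across both lines ran from -0.26 to 0.039, and QARS1 between the lines in ethanol from -0.17 to 0.063. Differences ran from -0.032 to 0.11 for IARS1, -0.20 to 0.043 for QARS1, -0.13 to 0.068 for TARS2 and -0.0074 to 0.56 for VARS2. Members called in no setting were left out of these lists, 9 in H929, 20 in KMS11, 19 across both lines, 13 for the difference and 3 in ethanol, of which 6, 8, 8, 5 and 3 changed sign under some setting. This choice was made after the values were seen.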
